A study of Sus scrofa with 12 samples.

Results

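The genes described here act in mitosis and meiosis. Among them are subunits of the anaphase-promoting complex (APC/C), its coactivators and inhibitors, the spindle assembly checkpoint and the mitotic kinases. The others belong to the chromosomal passenger complex, separase with securin and the shugoshins, and the NDC80 complex. All were taken as the rows of the deposited count table whose symbol stood in a list of 43 genes. Of these, 38 had a row and all 38 passed the filter on low counts, out of 29329 genes in the table and 17995 tested. The symbols ANAPC2, ANAPC11, AURKA, AURKC and PTTG1 were not matched to a row and were not analysed here.

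The study asked how depletion of cyclin B2 (CCNB2), a partner of the kinase CDK1, alters the early embryo. Porcine embryos from in vitro fertilisation were pooled, and their polyadenylated RNA was primed with oligo(dT), copied to full length by template switching, amplified by PCR and sequenced (SMART-seq). The 12 libraries formed 4 groups of 3, named by their titles: con-2c and con-4c, which carry the treatment label blank control, and si-2c and si-4c, which carry si-CCNB2, a small interfering RNA against CCNB2 delivered by injection. The methods describe an injected negative control for each reagent and call these controls the NC group, but also normal embryos, so the sources differ on whether these controls were injected. Nothing in the labels says that the 3 libraries of a group came from separate fertilisations, so p-values measure the spread between these libraries, which may be technical. Each library held a pool of embryos, and fewer cells of a type or less RNA per cell cannot be told apart.

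The stage labels of the libraries disagreed. In all 12 libraries the title and the tissue label named opposite stages: titles of 2c went with a tissue of embryos at 4 cells, and titles of 4c with a tissue of embryos at 2 cells. Group names below refer to titles only. The si libraries also did not lie with the control libraries of the same title: over all genes, si-4c differed little from con-2c, and si-2c little from con-4c, as the shares given with those comparisons show. Which label gives the stage, and whether stages were exchanged in the si libraries alone, cannot be told apart from these files. Genes with at least 1 count numbered 18034 to 18819 in con-2c, 18083 to 18231 in si-4c, 21181 to 21647 in con-4c and 22105 to 23279 in si-2c.

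The APC/C is a ubiquitin ligase that marks cyclin B and securin for destruction, which frees separase to cut cohesin and lets CDK1 activity fall. CDC20 and FZR1 bring substrates to it. FBXO5 (EMI1) and FBXO43 (EMI2) inhibit it, and EMI2 with the MOS kinase pathway holds the egg in metaphase of the second meiotic division until fertilisation. The spindle assembly checkpoint, built from MAD1L1, MAD2L1, BUB1, BUB1B, BUB3 and TTK, keeps CDC20 from acting until kinetochores are attached through the NDC80 complex. Cleaving embryos run these divisions largely on RNA stored in the egg until their own genome becomes active.

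The reagents against CCNB2 were a pair of designed duplexes, shown because they define the si groups. Which of them was injected for these libraries is not given in the sources used here. The strand that the study lists for each is given in lower case from 5′ to 3′.

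Duplex Si-CCNB2-1: gcagguccacuccaaguuu

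Duplex Si-CCNB2-2: gcuuauaccaguucccaaa

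Library totals ran from 27785233 to 39510908 counts. Levels are given as CPM, a count relative to the library total, after scaling by trimmed mean of M-values (TMM), and they compare 1 gene between libraries, not genes with each other, since transcript lengths were not used. The CCNB2 level was 463, 487 and 444 CPM in con-2c, 40.7, 46.8 and 40.3 in si-4c, 510, 485 and 429 in con-4c and 17.8, 28.8 and 21.6 in si-2c, so the target was low in every si library. Markers of oocytes and early embryos (10 of 11 matched, none at 0) summed to 5220 to 5390 CPM in con-2c, 4870 to 5040 in si-4c, 3640 to 3650 in con-4c and 3840 to 4060 in si-2c. This sum was higher in con-2c and si-4c, the same groups in which many members were higher, and its part in the results was not tested. OOEP had the largest step, with means of 1340, 1030, 371 and 440 CPM in con-2c, si-4c, con-4c and si-2c. ZP4 had 1120, 812, 528 and 482 in that order, while BMP15 had 887, 1050, 985 and 1230. At an edgeR adjusted p below 0.05, con-4c over con-2c gave 7 of these 10 markers lower and 0 higher. For si-4c over con-4c, 7 were higher and 0 lower. For si-2c over con-2c, only 3 were lower, 1 was higher and 6 were not called. Markers of cumulus and granulosa cells (8 of 11 matched) summed to 0.764 to 2.03 CPM in con-2c, 0.781 to 1.43 in si-4c, 4.28 to 4.81 in con-4c and 2.78 to 5.41 in si-2c. Of these, COL1A1 and COL3A1 averaged 1.6 and 1.69 CPM in con-4c and 0.109 and 0 in con-2c. CYP19A1 ran the other way, at 0.208 in con-4c and 0.715 in con-2c. Markers of blood and immune cells (4 of 5 matched) summed to 0.238 to 0.573 CPM in con-2c, 0.508 to 0.81 in si-4c, 2.39 to 2.99 in con-4c and 0.622 to 0.974 in si-2c. The 3 of 9 sperm markers matched summed to 6.6 to 9.35 CPM in con-2c, 9.57 to 11.8 in si-4c, 9.94 to 14.2 in con-4c and 10.6 to 16.3 in si-2c. Nearly all of this sum was ODF2, with means of 8.42, 10.3, 11.4 and 12.3 CPM in that order. AKAP4 and SPATA18 had 0 counts in con-2c and si-4c. Their means were 0.349 and 0.0768 CPM in con-4c and 0.648 and 0.182 in si-2c. In these lists no gene matched was at 0 in all libraries, and their part in the results was not tested.

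Each contrast is named by what it holds: the control contrast is con-4c over con-2c, the 2c contrast is si-2c over its control of that title, the 4c contrast is the same for libraries titled 4c, and the si contrast is si-4c over si-2c. In the control contrast 7 of the 12 APC/C subunits tested, the inhibitor FBXO5 and 3 of the 6 checkpoint genes (MAD2L1, BUB1 and BUB1B) were lower in con-4c. The checkpoint protein MAD2L1 and the APC/C subunit ANAPC10 fell more than 2-fold, while MAD1L1 and the subunit CDC23 rose more than 2-fold from near-absent levels. Genes counted as called had an adjusted p below 0.05 in edgeR's quasi-likelihood test, with Benjamini-Hochberg adjustment over all genes tested, and by the 2-fold rule also a log2 fold change of 1 or more in size. By the 2-fold rule 2 members were higher and 2 lower, beside 14.4% and 3.25% of all genes. At any fold 4 members were higher (20.7% of all genes) and 18 lower (15.1% of all genes), which is 47.4% of the members lower. The median log2 fold change was -0.33 over the members and 0.11 over all genes tested.

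In the 2c contrast the members lower included CDC20, FBXO5, MAD2L1, BUB1 and all 4 genes of the NDC80 complex. By the 2-fold rule 2 members were higher (CDC23 and MAD1L1) and 3 lower (ANAPC10, MAD2L1 and NUF2), beside 10.7% and 1.8% of all genes. At any fold 3 were higher (16.6% of all genes) and 26 lower (12.3% of all genes), or 68.4% of the members lower. Members had a median log2 fold change of -0.39 against 0.12 over all genes.

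The 4c contrast ran the other way. ANAPC10, MAD2L1 and NUF2 were higher by the 2-fold rule and CDC23 and MAD1L1 lower, 3 and 2 members beside 3.12% and 15.8% of all genes. At any fold 20 members were higher (15.1% of all genes) and 4 lower (21.7% of all genes), which is 52.6% of the members higher. Medians were 0.31 over the members and -0.11 over all genes. The comparisons above share control libraries, so their values for a member are given side by side and are not independent of each other.

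These directions depend on the scaling. With library totals in place of TMM factors the median log2 fold change of all genes moved from 0.11 to 0.38 in the control contrast, from 0.12 to 0.52 in the 2c contrast and from -0.11 to -0.37 in the 4c contrast. The members' medians then were -0.05, 0.01 and 0.05, so that the sign over the members turned in the 2c contrast. Relative to the median of all genes the members stood at -0.44, -0.51 and 0.43 under TMM and at -0.43, -0.51 and 0.43 under library totals. In the si contrast and in the test of the stage difference described further on, the members' medians turned from 0.33 to -0.05 and from 0.6 to -0.06 with library totals, while those of all genes went from -0.13 to -0.51 and from -0.23 to -0.88. With library totals 9 members were lower in the control contrast (7.37% of all genes), 8 lower in the 2c contrast (3.77% of all genes) and 9 higher in the 4c contrast (7.61% of all genes), while 29.2%, 33.6% and 29.4% of all genes were called in the opposite direction. By the 2-fold rule library totals left 1 member lower in the control contrast (1.27% of all genes), and none of the 3 lower in the 2c contrast (0.322% of all genes) or the 3 higher in the 4c contrast (1.28% of all genes). Statements below on which libraries lay above or below others refer to TMM-scaled levels unless raw counts are given. With library totals some of these orders did not hold, as shown for CDC27 and CDC20.

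A pair of libraries stood furthest apart from their replicates. The chi-square for each degree of freedom between libraries was 43 and 44 for si-2c replicate 3 against 13.2 between the other si-2c libraries, and 28.2 and 34.2 for con-2c replicate 3 against 16.5 between the other con-2c libraries. For si-4c replicate 1 it was 16.7 and 16.7 against 8.51 between the other si-4c libraries. Without con-2c replicate 3 the members lower at any fold were 18 in the control contrast and 20 in the 2c contrast, and 20 were higher in the 4c contrast. Without si-2c replicate 3 these counts were 18, 23 and 20. Leaving out each of the 12 libraries in turn, they ran from 15 to 18, 20 to 25 and 15 to 20. MAD2L1, in which con-2c replicate 3 was the lowest of its group, had log2 fold changes of -1.21 in the control contrast and -1.48 in the 2c contrast without that library, and of -1.44 in the latter without si-2c replicate 3.

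**Figure D1:**
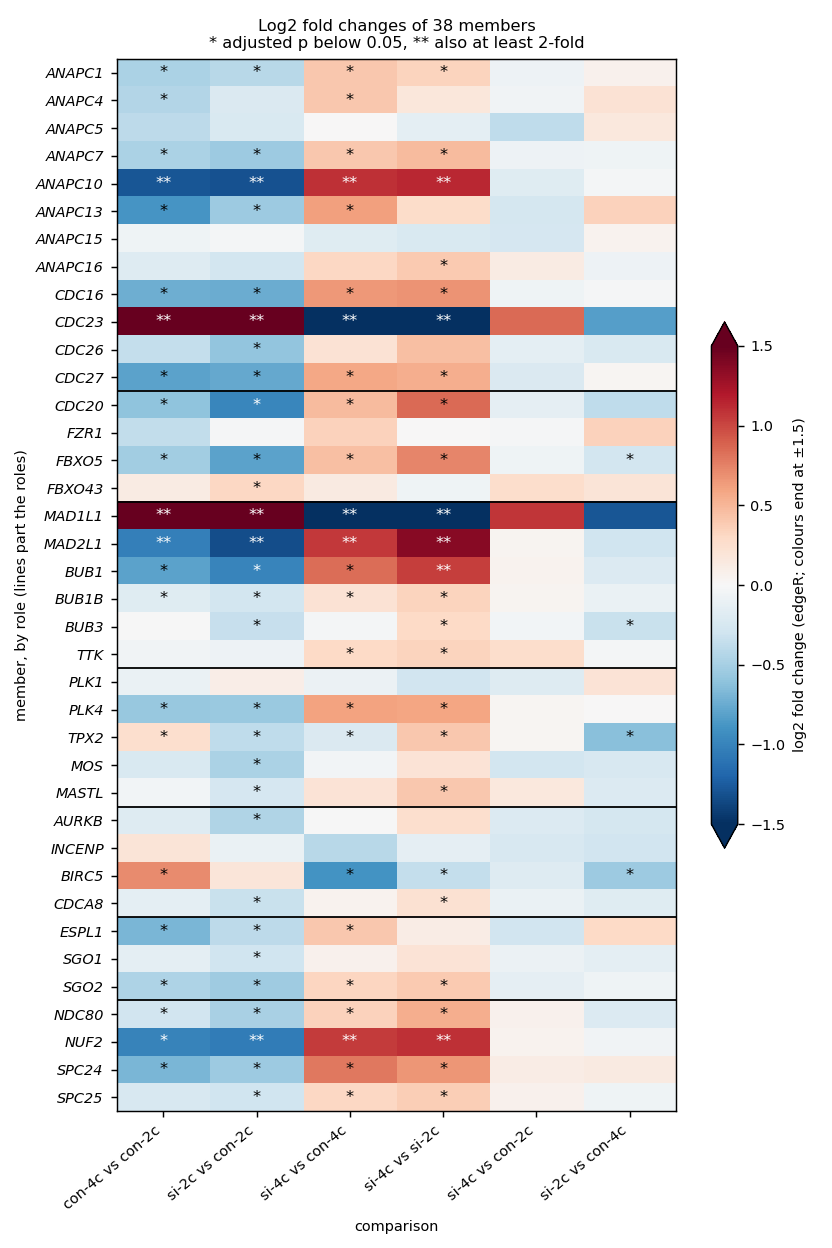
Log2 fold changes of the 38 members (rows, grouped by role between lines) in the 6 comparisons between groups (columns), from the edgeR fit with TMM scaling; colours end at 1.5 on either side, 1 star marks an adjusted p below 0.05 and 2 stars also at least 2-fold. Most rows are blue in the first 2 columns, red in the next 2 and pale in the last 2, while CDC23 and MAD1L1 run the opposite way.

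Of the 12 APC/C subunits tested, 7 were lower and 1 higher in the control contrast, 7 lower and 1 higher in the 2c contrast, and 7 higher and 1 lower in the 4c contrast. Over all genes 15.1% were lower and 20.7% higher, 12.3% lower and 16.6% higher, and 15.1% higher and 21.7% lower. With library totals the counts of subunits were 4 lower and 1 higher, 3 lower and 2 higher, and 4 higher and 2 lower, beside 7.37% and 29.2%, 3.77% and 33.6%, and 7.61% and 29.4% of all genes. ANAPC10 (DOC1), the subunit that helps the coactivator hold substrates, lies at chr8:83353217-83497570 (Sscrofa11.1, RefSeq). It was at 22.7, 24.5 and 21.9 CPM in con-2c, 18.7, 20.4 and 21.7 in si-4c, 10.5, 9.51 and 8.52 in con-4c and 8.97, 9.21 and 9.68 in si-2c. No con-2c or si-4c library overlapped a con-4c or si-2c library. The log2 fold change was -1.28 ± 0.12 (SE, adjusted p = 3.22e-07) in the control contrast, -1.31 ± 0.12 (adjusted p = 3.93e-07) in the 2c contrast and 1.09 ± 0.12 (adjusted p = 1.98e-06) in the 4c contrast. It kept its call at any fold under TMM, relative log expression (RLE) and library totals in each of these, but with library totals it was at -0.91 and 0.84 in the 2c and 4c contrasts, short of the 2-fold rule.

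CDC16 and CDC27, which form part of the arm of the APC/C built from tetratricopeptide repeats, moved in the same directions below the 2-fold line. CDC16 was at 48.7, 45.2 and 44.6 CPM in con-2c, 41.6, 47.3 and 42.7 in si-4c, 26.2, 27.9 and 29.7 in con-4c and 28, 28 and 26.5 in si-2c. CDC27 was at 765, 760 and 539 CPM in con-2c, 592, 618 and 563 in si-4c, 368, 415 and 400 in con-4c and 349, 388 and 473 in si-2c. After TMM scaling the con-2c and si-4c libraries of both genes lay above all con-4c and si-2c libraries. They were closest for CDC27, between 539 in con-2c replicate 3 and 473 in si-2c replicate 3. As a share of library totals that pair changed order, with 17523 of 33833611 counts in the former and 22067 of 38649571 in the latter. CDC16 had log2 fold changes of -0.73, -0.75 and 0.65 in the control, 2c and 4c contrasts, and CDC27 of -0.8, -0.77 and 0.58 (each called, under all 3 scalings).

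ANAPC13, a small subunit that steadies this arm, was at 20.9, 26.7 and 26.3 CPM in con-2c, 21.5, 19 and 21.1 in si-4c, 13.1, 13.9 and 13 in con-4c and 15.9, 16.7 and 18.3 in si-2c. The si-2c libraries lay between those of con-4c and the other groups. Its log2 fold change was -0.88 ± 0.12 (adjusted p = 2.02e-05) in the control contrast, -0.54 ± 0.12 (adjusted p = 0.00243) in the 2c contrast and 0.62 ± 0.12 (adjusted p = 0.00065) in the 4c contrast, and the second of these was not called with library totals.

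CDC23, another subunit of the repeat arm at chr2:140211334-140245728, went the opposite way from its neighbours in the complex. Its raw counts were 8, 20 and 9 in con-2c, 25, 15 and 29 in si-4c, 227, 243 and 186 in con-4c and 156, 124 and 232 in si-2c. No library of con-4c or si-2c overlapped one of con-2c or si-4c. In CPM the group means were 0.375, 0.683, 7.19 and 4.03 in that order. The log2 fold changes were 4.24 ± 0.36 (adjusted p = 8.71e-08) in the control contrast, 3.41 ± 0.36 (adjusted p = 1.66e-06) in the 2c contrast and -3.39 ± 0.34 (adjusted p = 5.29e-07) in the 4c contrast. These values rest on low counts in con-2c and si-4c, and the count of 4 was more frequent in the table than its neighbours (12330 cells, beside 5957 with 3 and 4750 with 5); the part of this in the low values was not tested.

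The other subunits tested were ANAPC1, ANAPC4, ANAPC5, ANAPC7, ANAPC15, ANAPC16 and CDC26. The platform subunit ANAPC1 and the repeat subunit ANAPC7 were called in the same directions as CDC16, at log2 fold changes of -0.48 and -0.48 in the control contrast, -0.42 and -0.54 in the 2c contrast, and 0.4 and 0.41 in the 4c contrast, and with library totals neither was called in any of these. ANAPC1 lost its call without con-2c replicate 3 or si-2c replicate 2 in the 2c contrast (adjusted p = 0.0579 and 0.0594) and without con-4c replicate 3 or si-4c replicate 2 or 3 in the 4c contrast (adjusted p between 0.053 and 0.0703), and ANAPC7 in the latter without con-4c replicate 2 (adjusted p = 0.0556). ANAPC4 was called lower in the control contrast (-0.44, adjusted p = 0.0285) and higher in the 4c contrast (0.4, adjusted p = 0.0464), and CDC26 only in the 2c contrast (-0.59, adjusted p = 0.0446) among those. The first of these was lost without con-2c replicate 3 or con-4c replicate 1 or 2 (adjusted p between 0.0853 and 0.137), and the second without any of 9 libraries, all but con-2c replicate 3, con-4c replicate 3 and si-4c replicate 1 (adjusted p between 0.0504 and 0.2). Neither these calls nor that of CDC26 held with library totals. That of CDC26 was lost without con-2c replicate 1 or 3, any con-4c library, si-2c replicate 1 or si-4c replicate 2 (adjusted p between 0.0506 and 0.194). ANAPC15, which helps the APC/C to release the mitotic checkpoint complex, ran from 282 to 407 CPM over the 12 libraries, and neither it nor ANAPC5 (4.45 to 7.5 CPM) was called in any of the 7 comparisons. ANAPC16 (22.1 to 37 CPM) was called in the si contrast and in the difference between title stages given further on, but with library totals in neither, at 0.01 and -0.07. The former call was also lost without si-2c replicate 1 or 3 or si-4c replicate 1 (adjusted p between 0.052 and 0.147).

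Of the coactivators and inhibitors, CDC20 and FBXO5 were called in all 3 comparisons and FZR1 in none. CDC20, the mitotic coactivator and the target of the checkpoint, was at 46.6, 38.9 and 44.6 CPM in con-2c, 40.5, 39.1 and 39.2 in si-4c, 28.4, 23.4 and 33.9 in con-4c and 21.2, 24.3 and 20.3 in si-2c. After TMM scaling the con-4c and si-2c libraries lay below the others in every case. As a share of library totals con-4c replicate 3 (1042 of 28771777 counts) lay above con-2c replicate 2 (1308 of 39510908). The log2 fold change was -0.6 ± 0.12 (adjusted p = 0.00105) in the control contrast, -0.98 ± 0.12 (adjusted p = 1.34e-05) in the 2c contrast and 0.47 ± 0.12 (adjusted p = 0.00677) in the 4c contrast, and of these only the second held its call with library totals.

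FBXO5, which blocks the APC/C in interphase, was at 476, 517 and 468 CPM in con-2c, 468, 473 and 455 in si-4c, 344, 339 and 338 in con-4c and 280, 282 and 279 in si-2c. The si-2c libraries lay below those of con-4c, which lay below the rest. Its log2 fold changes were -0.52 ± 0.07 (adjusted p = 1.01e-05) in the control contrast, -0.8 ± 0.07 (adjusted p = 1.24e-07) in the 2c contrast and 0.45 ± 0.07 (adjusted p = 4.3e-05) in the 4c contrast, and all kept their calls under the 3 scalings.

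FBXO43, the meiotic inhibitor, was at 78, 72 and 69.7 CPM in con-2c, 82.8, 87.4 and 92.1 in si-4c, 83.1, 75.4 and 80 in con-4c and 99.9, 86.4 and 86.6 in si-2c. It rose in the 2c contrast (log2 fold change 0.31 ± 0.08, adjusted p = 0.0102), where the groups did not overlap, and it lost that call without si-2c replicate 1 (adjusted p = 0.0675). FZR1, the coactivator of late mitosis and interphase, was at 7.67, 7.46 and 11.2 CPM in con-2c, 8.61, 8.53 and 8.72 in si-4c, 8.06, 7.13 and 5.2 in con-4c and 8.28, 8.3 and 9.27 in si-2c. Its groups overlapped, apart from si-2c and si-4c lying above con-4c, and none of its adjusted p-values passed the threshold.

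Of the 6 checkpoint genes, 3 were lower and 1 higher in the control contrast, beside 15.1% and 20.7% of all genes (median log2 fold change -0.11, against 0.11 over all genes). With library totals 2 were lower and 2 higher, beside 7.37% and 29.2% of all genes (median 0.16, against 0.38 over all genes). Among them MAD2L1 and MAD1L1, the partners at the start of checkpoint signalling, went in opposite directions. MAD2L1, which in its closed form binds CDC20, lies at chr8:103927358-103936669. It was at 855, 858 and 592 CPM in con-2c, 820, 810 and 735 in si-4c, 346, 412 and 377 in con-4c and 263, 306 and 351 in si-2c. The con-2c and si-4c libraries lay above the others, with con-2c replicate 3 the lowest of them. The log2 fold change was -1.02 ± 0.13 (adjusted p = 9.41e-06) in the control contrast, -1.33 ± 0.13 (adjusted p = 8.95e-07) in the 2c contrast and 1.06 ± 0.13 (adjusted p = 6.42e-06) in the 4c contrast. The first of these lay close to the 2-fold line, and the count of members lower by the 2-fold rule in the control contrast went from 2 to 1 without con-2c replicate 1, con-2c replicate 2 or con-4c replicate 1.

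MAD1L1, the kinetochore anchor that recruits and converts MAD2L1, lies at chr3:1236066-1559346. Its raw counts were 5, 4 and 0 in con-2c, 8, 0 and 12 in si-4c, 236, 268 and 294 in con-4c and 152, 169 and 120 in si-2c. It was nearly absent in con-2c and si-4c, with 9 counts in all con-2c libraries against 798 in con-4c. The fitted log2 fold changes were 6.51 ± 0.64 (adjusted p = 4.56e-07) in the control contrast, 5.23 ± 0.64 (adjusted p = 8.95e-06) in the 2c contrast and -5.44 ± 0.58 (adjusted p = 1.12e-06) in the 4c contrast, and their size depends on the prior count of the fit. A floor of 3 counts was worth 0.0644 to 0.0994 CPM in a library, against 7.77, 8.88 and 9.56 CPM measured in con-4c.

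**Figure D2:**
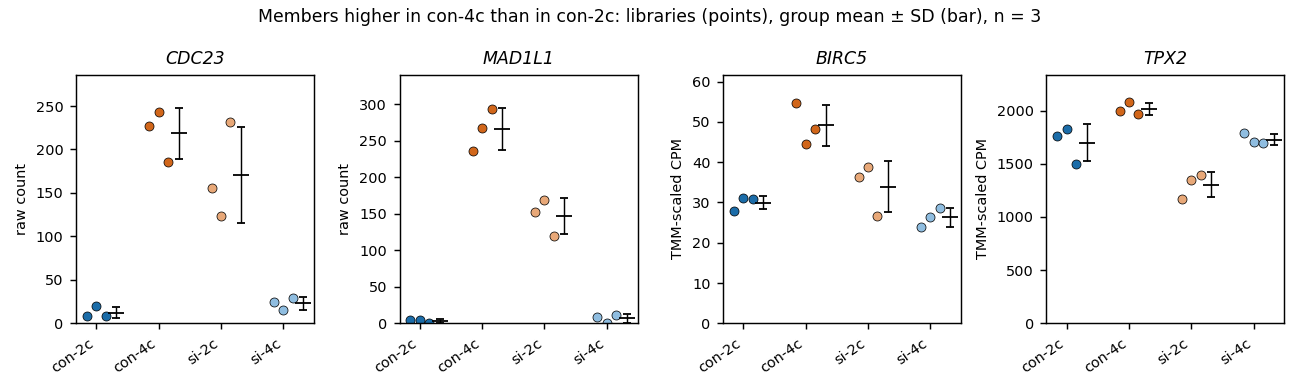
CDC23 and MAD1L1 as raw counts and BIRC5 and TPX2 as TMM-scaled CPM in each library (points), with the mean and SD of each group of 3. CDC23 and MAD1L1 stand at 29 counts or fewer in every con-2c and si-4c library and at 120 or more in every con-4c and si-2c library, and TPX2 is lowest in si-2c.

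BUB1, a kinase that docks checkpoint proteins at kinetochores, was at 72.1, 68.8 and 64.5 CPM in con-2c, 74.1, 64.7 and 73.4 in si-4c, 41.4, 43.3 and 33.7 in con-4c and 33.5, 31.6 and 38.1 in si-2c. The groups split into high and low without overlap. Its log2 fold changes were -0.8 ± 0.11 (adjusted p = 1.73e-05) in the control contrast, -0.99 ± 0.11 (adjusted p = 2.38e-06) in the 2c contrast and 0.84 ± 0.11 (adjusted p = 9.35e-06) in the 4c contrast, and each held under the 3 scalings. BUB1B (BUBR1), the inhibitor of CDC20 in the mitotic checkpoint complex, was at 1030, 1020 and 925 CPM in con-2c, 1020, 1030 and 1010 in si-4c, 845, 883 and 895 in con-4c and 833, 797 and 810 in si-2c. Its calls were small (log2 fold changes of -0.18, -0.28 and 0.22) and turned to 0.1, 0.12 and -0.03 with library totals.

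The call for BUB1B in the control contrast was lost when any of 9 libraries was left out, listed by group as con-2c replicates 1 and 2, con-4c replicates 1, 2 and 3, si-2c replicates 1 and 2, and si-4c replicates 2 and 3 (adjusted p between 0.0504 and 0.144), and that in the 4c contrast without con-4c replicate 1 (adjusted p = 0.0624). BUB3, which carries BUB1 and BUB1B to kinetochores, ran from 269 to 386 CPM and TTK (MPS1), the kinase that starts the signal, from 94.8 to 132 CPM. BUB3 was called lower in the 2c contrast (-0.34, adjusted p = 0.00403) and TTK higher in the 4c contrast (0.3, adjusted p = 0.017), but with library totals the first turned to 0.06 and the second was 0.05 and not called. The second was also lost without con-4c replicate 3 or si-4c replicate 2 (adjusted p = 0.065 and 0.0503).

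The kinase group and TPX2 showed no shared direction between the control groups. PLK4, the kinase that sets centriole number, was at 41.5, 43.2 and 33.9 CPM in con-2c, 40.1, 44.7 and 36.6 in si-4c, 24.1, 31 and 25.1 in con-4c and 23.8, 23.1 and 33.8 in si-2c. The con-4c and si-2c libraries lay below the others, by little between si-2c replicate 3 at 33.8 and con-2c replicate 3 at 33.9. Its log2 fold changes were -0.57 ± 0.15 (adjusted p = 0.00699) in the control contrast, -0.56 ± 0.15 (adjusted p = 0.00941) in the 2c contrast and 0.6 ± 0.15 (adjusted p = 0.00464) in the 4c contrast. Without si-2c replicate 1 or 2 the call of the 2c contrast was lost (adjusted p = 0.051 and 0.0549), and none of the 3 calls held with library totals.

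PLK1, the polo kinase of mitotic entry and exit, was at 38.6, 26.9 and 46.3 CPM in con-2c, 28.3, 32.4 and 37.6 in si-4c, 38.6, 34.6 and 31.2 in con-4c and 48.4, 39.2 and 32.5 in si-2c. All groups overlapped and no comparison was called. MOS, the kinase that maintains cytostatic factor in the egg, was at 388, 337 and 465 CPM in con-2c, 316, 324 and 346 in si-4c, 383, 290 and 340 in con-4c and 335, 328 and 195 in si-2c. It was called lower in the 2c contrast (-0.47 ± 0.16, adjusted p = 0.0402), a call lost without con-2c replicate 1 or 3, con-4c replicate 3 or si-2c replicate 3 (adjusted p between 0.0548 and 0.17). Without si-2c replicate 3 the value was -0.26, and with library totals it was -0.09 and not called. MASTL (Greatwall), which restrains the phosphatase PP2A-B55, ran from 286 to 429 CPM and was called lower in the 2c contrast (-0.25, adjusted p = 0.0331), turning to 0.15 with library totals. That call was lost without any con-2c library, con-4c replicate 3 or si-2c replicate 1 or 2 (adjusted p between 0.0503 and 0.165).

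TPX2, which activates Aurora A and builds the spindle, was at 1760, 1830 and 1500 CPM in con-2c, 1790, 1700 and 1690 in si-4c, 2000, 2080 and 1970 in con-4c and 1170, 1350 and 1390 in si-2c. Its highest group was con-4c and its lowest si-2c, and neither overlapped another group. The log2 fold change was 0.25 ± 0.08 (adjusted p = 0.0301) in the control contrast, a call lost without con-2c replicate 3 or any con-4c library (adjusted p between 0.0628 and 0.216). In the 2c contrast it was -0.38 ± 0.08 (adjusted p = 0.00252), which turned to 0.02 with library totals. In the 4c contrast it was -0.22 (adjusted p = 0.0497), a call lost without con-2c replicate 1, si-2c replicate 2 or any con-4c or si-4c library (adjusted p between 0.0619 and 0.154).

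In the chromosomal passenger complex, which corrects faulty attachments and steers cytokinesis, BIRC5 was called between the control groups, and AURKB, INCENP and CDCA8 were not. BIRC5 (survivin) was at 28, 31 and 30.8 CPM in con-2c, 24, 26.3 and 28.6 in si-4c, 54.6, 44.5 and 48.3 in con-4c and 36.3, 38.7 and 26.7 in si-2c. The con-4c libraries lay above all others. Its log2 fold change was 0.71 ± 0.13 (adjusted p = 0.00033) in the control contrast, 0.18 ± 0.13 (adjusted p = 0.346) in the 2c contrast and -0.9 ± 0.13 (adjusted p = 3.55e-05) in the 4c contrast. With library totals it was called higher in the 2c contrast too.

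AURKB, the kinase of this complex, was at 52.8, 58.4 and 57.1 CPM in con-2c, 52.9, 47.8 and 45.8 in si-4c, 51.1, 45 and 51.4 in con-4c and 45, 45.2 and 33.5 in si-2c. The si-2c libraries lay below those of con-2c and si-4c and overlapped those of con-4c. It was called lower in the 2c contrast (-0.45 ± 0.11, adjusted p = 0.00647), though not with library totals. CDCA8 (borealin, 165 to 226 CPM) was also called lower there (-0.33, adjusted p = 0.00268), with a turn to 0.07 under library totals, and INCENP (7.08 to 12.3 CPM) was called in none of the 7 comparisons.

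Separase (ESPL1), the protease that cuts cohesin at anaphase, was at 13.7, 12.6 and 16.1 CPM in con-2c, 11.6, 12 and 11.2 in si-4c, 8.26, 8.95 and 9.13 in con-4c and 11.4, 10.6 and 10.4 in si-2c. The con-4c libraries were lowest and the 2 si groups overlapped. It was called in the control contrast (-0.69 ± 0.13, adjusted p = 0.000626) under all 3 scalings. Its calls in the 2c contrast (-0.39, adjusted p = 0.0338) and the 4c contrast (0.4, adjusted p = 0.0265) did not hold with library totals. Each was also lost without several single libraries. These were con-2c replicate 1 or 3 or any si-2c library for the 2c contrast (adjusted p between 0.0532 and 0.16). For the 4c contrast they were con-4c replicate 1 or 2 or si-4c replicate 1 or 2 (adjusted p between 0.0532 and 0.0846). The shugoshins guard centromeric cohesin from separase. SGO2 (230 to 399 CPM) was called lower in the control and 2c contrasts (-0.46 and -0.53) and higher in the 4c contrast, the last lost without con-4c replicate 1 or 3 or si-4c replicate 2 or 3 (adjusted p between 0.0531 and 0.0997), and none of the 3 calls of SGO2 held with library totals. SGO1 (281 to 435 CPM) was called lower in the 2c contrast (-0.3, adjusted p = 0.0447), which turned to 0.1 with library totals and was lost without con-2c replicate 1 or 2, con-4c replicate 2 or 3, si-2c replicate 1 or 3 or si-4c replicate 2 or 3 (adjusted p between 0.0515 and 0.173).

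The NDC80 complex joins kinetochores to microtubules, and its 4 genes were all called lower in the 2c contrast and higher in the 4c contrast, beside 12.3% and 15.1% of all genes. Library totals left 1 lower in the former (3.77% of all genes) and 2 higher in the latter (7.61% of all genes). NUF2, the partner of NDC80 at the microtubule end, lies at chr4:87162873-87194193 and was at 173, 159 and 131 CPM in con-2c, 164, 156 and 159 in si-4c, 69.6, 81.7 and 79.9 in con-4c and 63.8, 72 and 87.4 in si-2c. It split without overlap into high and low groups. The log2 fold change was -1 ± 0.12 (adjusted p = 3.61e-06) in the control contrast, just inside the 2-fold line and so not called by the 2-fold rule, -1.05 ± 0.12 (adjusted p = 3.29e-06) in the 2c contrast and 1.05 ± 0.12 (adjusted p = 2.01e-06) in the 4c contrast.

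SPC24, at the inner end of the complex, was at 24.2, 21.2 and 29.3 CPM in con-2c, 27.7, 25.7 and 27.4 in si-4c, 13, 19.3 and 14.4 in con-4c and 18, 17.8 and 15.5 in si-2c. Its con-4c and si-2c libraries lay below the rest. The log2 fold changes were -0.68, -0.54 and 0.79 in the same order of comparisons, and of these the one in the 4c contrast was called under all 3 scalings. NDC80 (358 to 607 CPM) was called at -0.29, -0.49 and 0.35, and SPC25 (72 to 114 CPM) in the comparisons with si libraries, at -0.3 (adjusted p = 0.0473) and 0.31 (adjusted p = 0.0318), turning to 0.1 in the first with library totals. SPC24 lost its call in the 2c contrast without con-2c replicate 3 (adjusted p = 0.0596), and NDC80 its call in the control contrast without con-2c replicate 1 or 2 or con-4c replicate 1 (adjusted p between 0.0773 and 0.114). SPC25 lost the first without replicate 1 or 2 of con-2c or si-2c, con-4c replicate 1 or 3 or any si-4c library (adjusted p between 0.0535 and 0.21), and the second without replicate 1 or 3 of con-4c or si-4c (adjusted p between 0.0588 and 0.124).

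**Figure D3:**
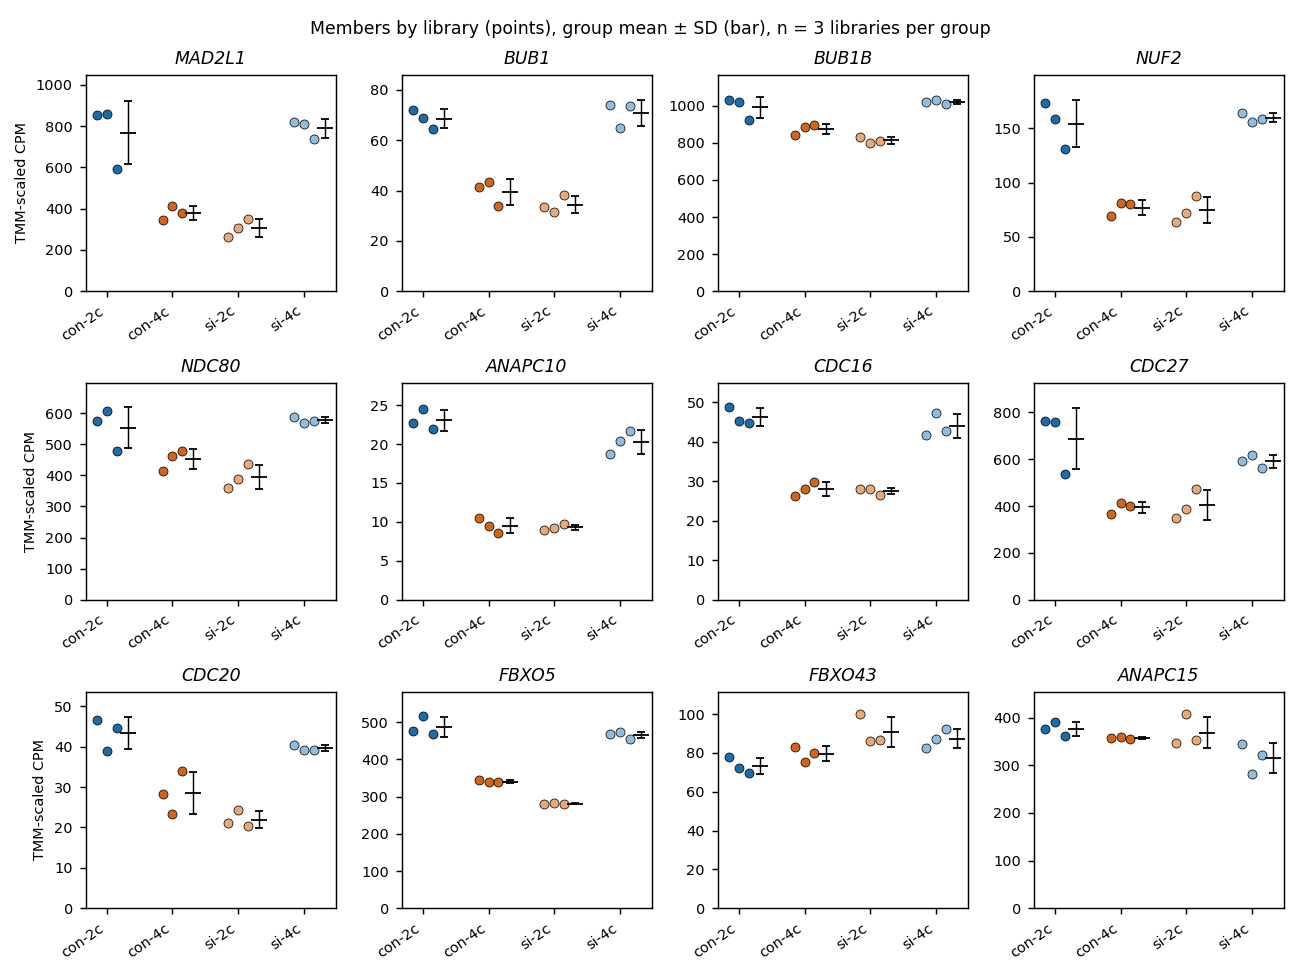
TMM-scaled CPM of 12 members in each library (points), with the mean and SD of each group of 3; each axis starts at 0. MAD2L1, BUB1, NUF2, ANAPC10, CDC16, CDC27, CDC20 and FBXO5 are high in con-2c and si-4c and low in con-4c and si-2c, BUB1B and NDC80 follow with smaller steps, and FBXO43 and ANAPC15 do not.

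Counted over the 38 members at any fold, 17 were lower in the control and 2c contrasts and higher in the 4c contrast (ANAPC1, ANAPC7, ANAPC10, ANAPC13, BUB1, BUB1B, CDC16, CDC20, CDC27, ESPL1, FBXO5, MAD2L1, NDC80, NUF2, PLK4, SGO2 and SPC24), or 44.7% of the members beside 8.56% of all genes tested. With library totals 7 of them had this pattern (ANAPC10, BUB1, CDC16, CDC27, FBXO5, MAD2L1 and NUF2), or 18.4% of the members beside 2.8% of all genes. The opposite pattern was seen in 2, CDC23 and MAD1L1, or 5.26% of the members beside 12.3% of all genes. With library totals it was seen in 3 (BIRC5, CDC23 and MAD1L1), or 7.89% of the members beside 20.5% of all genes. The contrasts share control libraries, so a pattern over them is not 3 separate results. Another 8 were called lower in the 2c contrast and were not called between the control groups (AURKB, BUB3, CDC26, CDCA8, MASTL, MOS, SGO1 and SPC25), or 21.1% of the members beside 2.39% of all genes. The 2c contrast minus the control contrast is the comparison of si-2c with con-4c, in which BUB3 was lower (-0.33, adjusted p = 0.0167) and the other 7 were not called (-0.26 to -0.06, adjusted p between 0.152 and 0.879). With library totals none of these 8 was called in the 2c contrast, and BUB3, CDCA8, MASTL, SGO1 and SPC25 changed sign there. Called in none of the 7 comparisons were 5 members, ANAPC5, ANAPC15, FZR1, INCENP and PLK1.

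Ratios of 2 genes within a library do not depend on its scaling, and 5 were chosen after the values were seen. The ratio of MAD2L1 to BUB1B counts was 0.772 ± 0.114 (SD, n = 3) in con-2c, 0.771 ± 0.0387 in si-4c, 0.433 ± 0.03 in con-4c and 0.377 ± 0.059 in si-2c. The ratio of NUF2 to NDC80 was 0.279 ± 0.0199, 0.277 ± 0.00233, 0.17 ± 0.00547 and 0.188 ± 0.0109 in the same order, and that of ANAPC10 to ANAPC15 was 0.0612 ± 0.00133, 0.0648 ± 0.00945, 0.0266 ± 0.0027 and 0.0253 ± 0.00244. In these ratios con-2c and si-4c stood apart from con-4c and si-2c without overlap. A ratio shows that the members changed unequally, not which of them changed.

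The inhibitors and TPX2 split the si-2c libraries from those of con-4c. FBXO5 to FBXO43 stood at 6.66 ± 0.545 (SD, n = 3) in con-2c, 5.33 ± 0.359 in si-4c, 4.29 ± 0.187 in con-4c and 3.1 ± 0.253 in si-2c, with no overlap between any pair of groups. TPX2 to BUB1B stood in that order at 1.71 ± 0.0866, 1.69 ± 0.0551, 2.31 ± 0.0932 and 1.6 ± 0.172, with con-4c alone above the rest.

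**Figure D4:**
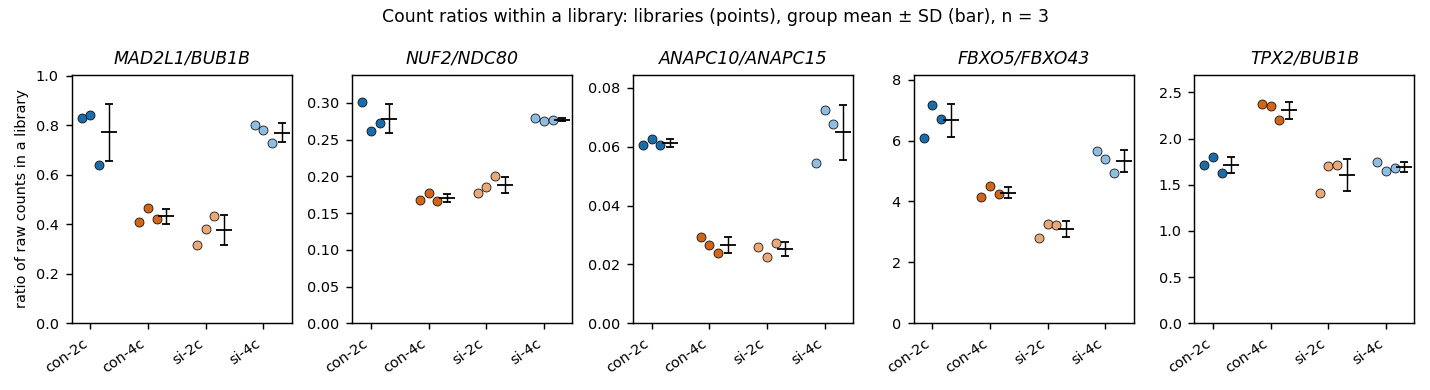
Ratios of raw counts of 5 pairs of members within each library (points), with the mean and SD of each group of 3; each axis starts at 0. In the first 3 panels con-2c and si-4c lie above con-4c and si-2c, FBXO5 to FBXO43 is lowest in si-2c (2.81 to 3.26), and TPX2 to BUB1B is highest in con-4c (2.2 to 2.37).

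Between si-4c and si-2c the members ran against the direction seen between con-4c and con-2c. By the 2-fold rule 4 members were higher in si-4c (ANAPC10, BUB1, MAD2L1 and NUF2) and 2 lower (CDC23 and MAD1L1), beside 1.47% and 11.9% of all genes. At any fold 22 were higher (12.1% of all genes) and 3 lower (16.9% of all genes), or 57.9% of the members higher, and with library totals 7 were higher (3.57% of all genes) and 7 lower (33.1% of all genes). The difference of MAD2L1 was 1.36 ± 0.13 (adjusted p = 6.78e-07), that of CDC20 0.85 ± 0.12 (adjusted p = 6.19e-05) and that of FBXO5 0.73 ± 0.07 (adjusted p = 3.51e-07).

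These stage differences share no library. Across the 38 members their Pearson correlation was -0.96, and 33 members had opposite signs. Without CDC23 and MAD1L1 it was -0.74 over 36 members, 31 of them of opposite sign, beside -0.74 over all 17995 genes tested, 13864 of them of opposite sign. The members are not independent points and share the libraries, so no p is given, and apart from CDC23 and MAD1L1 the members' correlation matched that of all genes to 2 decimals.

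**Figure D5:**
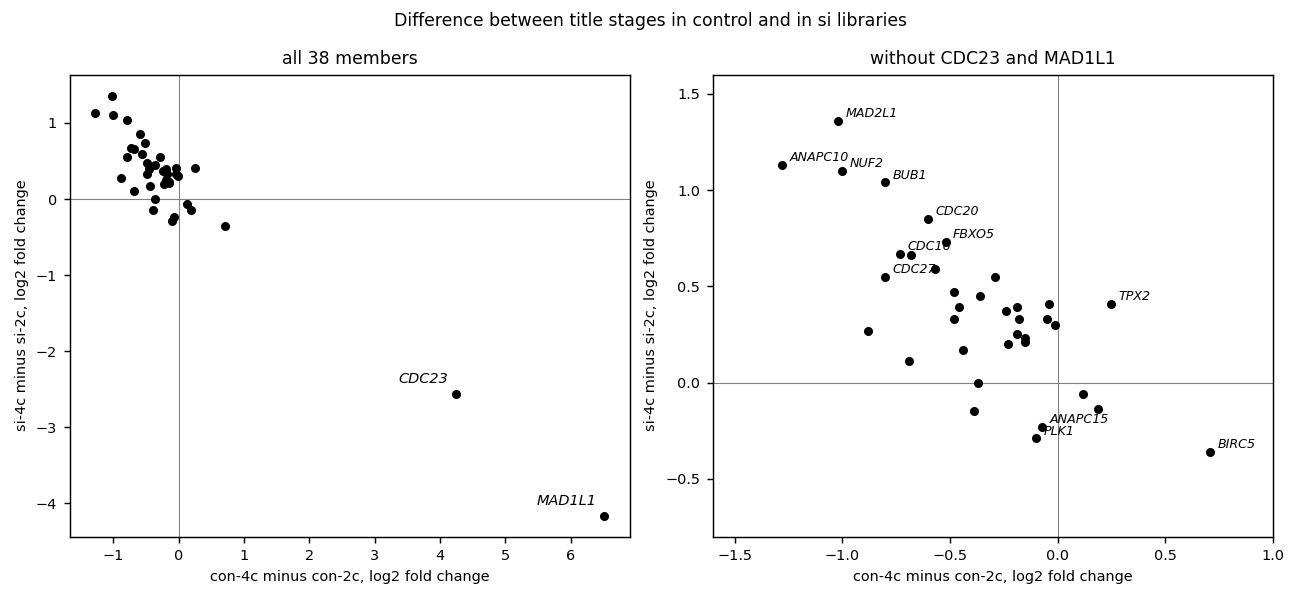
Log2 fold change of the control contrast (horizontal) and of the si contrast (vertical) for all 38 members (left) and without CDC23 and MAD1L1 (right); each point is 1 gene. The points fall from upper left to lower right, with CDC23 and MAD1L1 far to the lower right and MAD2L1, ANAPC10, NUF2 and BUB1 at the upper left.

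Whether the difference between si and control libraries itself differed between the title stages was tested by an interaction: the 4c contrast minus the 2c contrast on the log2 scale. By the 2-fold rule 11 members had a positive interaction (28.9% of the members, 9.87% of all genes) and 3 a negative one (22.5% of all genes). At any fold 26 were positive (18.2% of all genes) and 3 negative (27.3% of all genes), with a median of 0.6 over the members and -0.23 over all genes. The library totals left 10 positive (7.09% of all genes) and 10 negative (43.2% of all genes). Positive by the 2-fold rule were CDC20, FBXO5, ANAPC10, ANAPC13, CDC16, CDC27, MAD2L1, BUB1, PLK4, NUF2 and SPC24, and negative were CDC23, MAD1L1 and BIRC5. ANAPC10 had 2.4 ± 0.17 (adjusted p = 5.47e-09), MAD2L1 2.38 ± 0.18 (adjusted p = 1.59e-08) and NUF2 2.1 ± 0.17 (adjusted p = 1.91e-08).

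Compared across title stages, the si libraries came close to the controls of the other title. Between si-4c and con-2c, 0 of 38 members were called in either direction, at any fold or by the 2-fold rule. Over all genes 0.106% were higher and 0.567% lower at any fold, and 0.0333% higher and 0.3% lower by the 2-fold rule. At an unadjusted p below 0.05 edgeR gave 3 members higher (TTK, CDC23 and FBXO43) and 3 lower (ESPL1, ANAPC15 and ANAPC13), and DESeq2 also called 0 at its adjusted p. The shares of all genes by these rules are not given here, so the counts cannot be set against them. The log2 fold changes of MAD2L1, NUF2 and BUB1 were 0.04 ± 0.13, 0.05 ± 0.12 and 0.05 ± 0.11 (SE), which does not show that the levels were equal.

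Between si-2c and con-4c, 0 members were higher (2.22% of all genes) and 4 lower (5.32% of all genes) at any fold, and 0 higher (0.161% of all genes) and 0 lower (1.63% of all genes) by the 2-fold rule. At an unadjusted p below 0.05 edgeR gave 3 higher and 11 lower, and DESeq2 called 0 higher and 8 lower at its adjusted p, 1 of them by the 2-fold rule. For these counts too the shares of all genes are not given, so they do not show that members differ from other genes. The members lower were TPX2 (-0.63 ± 0.08, adjusted p = 0.000153), BIRC5 (-0.54 ± 0.13, adjusted p = 0.0157), BUB3 (-0.33 ± 0.08, adjusted p = 0.0167) and FBXO5 (-0.28 ± 0.07, adjusted p = 0.0144). TPX2 held its call under the 3 scalings, and the others did not. FBXO5 lost its call without any con-4c library or si-2c replicate 1 (adjusted p between 0.0531 and 0.0678), BUB3 without con-4c replicate 2 or 3 or si-2c replicate 1 or 2 (adjusted p between 0.0519 and 0.0936), and BIRC5 without con-4c replicate 1 (adjusted p = 0.0967). The count of 4 went to 2 when replicate 1 or 3 of con-4c or replicate 1 of si-2c was left out.

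The 38 members together made up 8820 ± 712 CPM (SD, n = 3) in con-2c, 8650 ± 159 in si-4c, 7590 ± 132 in con-4c and 6370 ± 285 in si-2c after TMM scaling. As a share of raw library totals they were 0.769% to 0.788% in con-2c, 0.813% to 0.815% in con-4c, 0.713% to 0.797% in si-2c and 0.768% to 0.783% in si-4c. The order of con-2c and con-4c thus turned with the scaling.

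Of 61 other genes of the pathway, listed by role, 56 were tested. At any fold 13 were higher and 20 lower in the control contrast, 12 higher and 21 lower in the 2c contrast, and 20 higher and 13 lower in the 4c contrast. The shares of all genes were 20.7% and 15.1%, 16.6% and 12.3%, and 15.1% and 21.7% in the same order. Between si-4c and con-2c 0 were called. The 11 centromere proteins, on which kinetochores are built, had 8 lower and 0 higher in the control contrast, 9 lower and 0 higher in the 2c contrast and 8 higher and 0 lower in the 4c contrast, with medians of -0.58, -0.57 and 0.58 under TMM. Cohesin and its regulators, the substrate of separase, ran the other way, with 7 of 13 higher and 2 lower, 5 higher and 2 lower, and 2 higher and 7 lower, at medians of 0.31, 0.21 and -0.26. With library totals neither list turned: the medians were -0.31, -0.16 and 0.32 for centromere proteins and 0.58, 0.61 and -0.51 for cohesin.

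Named by the smallest p among those past the 2-fold rule, CDCA5 (sororin), which holds cohesin on chromatin, was at 1.85, 0.981 and 1.97 CPM in con-2c, 1.89, 2.05 and 1.25 in si-4c, 15.6, 16.9 and 12.6 in con-4c and 7.41, 7.87 and 6.42 in si-2c. Its log2 fold changes were 3.23, 2.18 and -3.11 in the control contrast, the 2c contrast and the 4c contrast, and its level in si-2c lay below that of con-4c (-1.06, adjusted p = 0.00769). CENPK and ZWINT, kinetochore proteins, had -1.2 and -1.54, -1.15 and -1.15, and 1.05 and 1.2 in those comparisons. CENPT, which links the centromere to NDC80, was lower in the 2c contrast (-1.16, adjusted p = 0.0207). It averaged 2.61 CPM in con-2c, 1.18 in si-4c, 1.7 in con-4c and 1.16 in si-2c. Unlike CENPK and ZWINT it was thus low in si-4c as well, and its summed counts in a group were 119 to 254.

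MAD2L1BP, which helps to dismantle the checkpoint complex, rose by 1.09 in the control contrast and fell by 1.08 in the 4c contrast on the log2 scale. STAG3, a meiotic cohesin subunit, was higher in the control contrast (1.2) and in the 2c contrast (1.01) and lower in the 4c contrast (-0.63). RPS6KA2, a ribosomal S6 kinase, had 0 counts in all con-2c and si-4c libraries, and against a floor of 3 counts per library it was at least 24-fold higher in con-4c and at least 18.3-fold higher in si-2c, both over con-2c, and at least 24.9-fold higher in con-4c than in si-4c. CCNB1, the cyclin that the APC/C destroys, was lower in con-4c (-0.73) and si-2c (-0.96) than in con-2c and higher in the 4c contrast (0.72), and CDK1 ran from 96.2 to 153 CPM with a call in the 4c contrast (-0.35, adjusted p = 0.0455).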

How the data were processed

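SMART-seq libraries of pooled porcine embryos were analysed, 12 in 4 groups named by title. The authors deposited a table of raw, whole-number counts for each gene, with no normalization. The submitters' processing notes name cutadapt 1.9, HISAT2 2.2.1, StringTie 2.1.6, DESeq2, edgeR and the build Sscrofa11.1, with no role or order. The counting program, annotation release and use of strand are not given in the sources used here, so values of near-identical copies, overlapping and antisense genes are uncertain. Depth was 27785233 to 39510908 counts per library, and reads carried no molecular identifiers, so floors of 3 counts cover counting error only. Pairs of replicates differed beyond sampling noise, with a chi-square of 7.48 to 44 for each degree of freedom.

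The test was run with edgeR 4.0.16 (R 4.3.3): filterByExpr (17995 of 29329 genes), TMM factors (0.852 to 1.21), and 1 quasi-likelihood model of the 4 group means over all 12 libraries, so that groups share an estimate of spread (biological coefficient of variation 27.3%). P-values were adjusted by Benjamini-Hochberg over all genes tested. The study's thresholds (adjusted p below 0.05, absolute log2 fold change of at least 1) gave the 2-fold rule. Alternatives were library totals, RLE factors, no filter, DESeq2 1.42.0, only the groups compared, a replicate block and leaving out each library. The script was tested on simulated data.

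The members and gene lists were chosen with earlier results of these data known. Values in every library were printed for members past the 2-fold rule in the control, 2c or 4c contrast or the interaction and for core genes of each role (CDC20, FZR1, FBXO5, FBXO43, MAD2L1, BUB1, BUB1B, PLK1, AURKB, ESPL1, MOS). TPX2 was added after its values were seen. Other members were given by range and counts. Non-members named were CCNB2, CCNB1, CDK1 and up to 3 pathway genes of smallest p per direction past the 2-fold rule. A result that this rule would name is not reported here. Positions come from the RefSeq table of Sscrofa11.1, in which all 38 members were matched by symbol.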

Additional observations from a re-analysis of the deposited data

Results flagged for a closer look

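The difference between si and control libraries differed between the title stages in 14 members by the 2-fold rule, tested by the interaction term of the edgeR model (the 4c contrast minus the 2c contrast). On the log2 scale the interaction was 2.4 for ANAPC10, 2.38 for MAD2L1, 2.1 for NUF2, 1.83 for BUB1, 1.46 for CDC20, 1.4 for CDC16, 1.35 for CDC27, 1.33 for SPC24, 1.25 for FBXO5, 1.16 for ANAPC13 and 1.15 for PLK4. It was -1.08 for BIRC5, -6.8 for CDC23 and -10.67 for MAD1L1, and the last 2 rest on near-absent counts in con-2c and si-4c. Over all genes 9.87% had a positive and 22.5% a negative interaction by the same rule, so the negative calls among members are fewer than that share and the positive ones more. With library totals 4 members were positive by this rule (ANAPC10, MAD2L1, NUF2 and BUB1, beside 3.19% of all genes) and 3 negative (33.6% of all genes), and PLK4, at 0.49, was not called at any fold. Groups of 3 were too small for the test of an outlying value.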

How the results depend on the processing

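Scaling by library totals moved most counts of members. Percentages in this paragraph are shares of all genes called with library totals. In the control contrast the lower members went from 2 to 1 by the 2-fold rule (1.27%, and also to 1 with RLE factors and DESeq2). At any fold they went from 18 to 9 (7.37%). In the 2c contrast the lower went from 3 to 0 by the 2-fold rule (0.322%) and from 26 to 8 at any fold (3.77%). The higher there went from 3 to 6 at any fold (33.6%). In the 4c contrast the higher went from 3 to 0 by the 2-fold rule (1.28%) and from 20 to 9 at any fold (7.61%). The lower there went from 4 to 7 at any fold (29.4%). In the si contrast the higher went from 4 to 0 (0.278%) and from 22 to 7 (3.57%), and the lower from 3 to 7 (33.1%). In the interaction the higher went from 11 to 4 (3.19%) and from 26 to 10 (7.09%), and the lower from 3 to 10 (43.2%). In the si-2c and con-4c comparison the higher went from 0 to 2 (4.98% of all genes) and the lower from 4 to 1 (3.45% of all genes) at any fold. There the lower went from 4 to 8 with DESeq2, and by the 2-fold rule from 0 to 1 with no filter, DESeq2 or only the groups compared. Shares of all genes under these settings are not given here. The cause was not tested beyond the shift of the median of all genes that the library totals bring.

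Leaving out 1 library gave 1 to 3 members lower by the 2-fold rule in the control contrast, and in the si-2c and con-4c comparison 0 to 1 by the 2-fold rule (1 without si-4c replicate 2) and 2 to 5 at any fold. Of 266 member results 133 were called, 38 lost their call without some library and 0 changed sign.

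With library totals 68 of the 266 member values changed sign, of which 29 were called under TMM or library totals. Among these 29, those of the control contrast were BUB1B 0.1 and BUB3 0.27. In the 2c contrast they were ANAPC15 0.37, BUB1B 0.12, BUB3 0.06, TTK 0.32, CDCA8 0.07, MASTL 0.15, SGO1 0.1, TPX2 0.02 and SPC25 0.1, and in the 4c contrast BUB1B -0.03. In the si contrast they were ANAPC1 -0.05, BUB1B -0.05, BUB3 -0.08, TTK -0.05, CDCA8 -0.15 and SPC25 -0.01. In the interaction they were ANAPC4 -0.03, ANAPC16 -0.07, BUB1B -0.15, BUB3 -0.35, TTK -0.28, AURKB -0.22, CDCA8 -0.28, MASTL -0.21, SGO1 -0.3, TPX2 -0.5 and SPC25 -0.05.

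Replicate numbers did not pair the libraries (0 of 18 pairs with the same number correlated above 0.1, range -0.0495 to 0.029). With a replicate block 255 of the 266 member results kept their side of the threshold, 10 lost and 1 gained a call.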
